A study of Mus musculus with 4 samples.

Results

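Kit ligand (Kitl) and its receptor Kit form a signalling pair that was followed here in the mouse testis. They were chosen by name: every probe set whose single gene symbol is Kitl or Kit was taken, which gave 1 probe set for each, 99577_at for Kitl and 99956_at for Kit, and so 2 of the 8251 genes named on the array (12422 probe sets in all). The pair was picked out with the difference between the arrays already known, so its values in that contrast are given as a description and without a test.

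Testicular RNA of hypogonadal mice was hybridised to 4 one-colour mouse oligonucleotide arrays, 1 array per sample. Hypogonadal (hpg) mice carry a deletion in the gene for gonadotropin-releasing hormone, so their testes receive little gonadotropin and make little androgen. All the mice had received testosterone propionate, an injectable testosterone ester, and had then been deprived of it. T+T, by title, has 3 arrays. The mice of its replicate 1 had been dosed again with testosterone propionate for 4 hours. For replicates 2 and 3 the descriptions give a first treatment of 2 weeks and end at the withdrawal, so only the titles place them in T+T. T+O has 1 array, from mice treated for 2 weeks and then withdrawn. Age, length of withdrawal and pooling of animals are not given in the sources used here, so the spread between arrays may be technical. The length of the first treatment is likewise not given for T+T replicate 1.

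Kitl, also called stem cell factor, is a membrane-anchored cytokine that can be shed from the cell surface. In the testis it is known as a product of Sertoli cells, the somatic cells that line the seminiferous tubules. Kit is a receptor tyrosine kinase carried by differentiating spermatogonia and also by Leydig cells and mast cells. Binding of the ligand pairs 2 receptor molecules and starts signalling through PI3 kinase, the Ras and MAP kinase route and Src family kinases. Loss of either gene in mice is known for white spotting, anaemia and failure of germ cells.

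The promoter windows of both genes, from 250 bases before to 50 after the RefSeq start site on GRCm38.p6, are shown because the mice differed in exposure to an androgen, whose receptor binds DNA. The Kitl window lies at chr10:100015571-100015870 and the Kit window at chr5:75574737-75575036, both on the plus strand and written 5′ to 3′. Capitals mark the GC box (GGGCGG on either strand) and the TATA box (TATAAA on either strand).
Kitl: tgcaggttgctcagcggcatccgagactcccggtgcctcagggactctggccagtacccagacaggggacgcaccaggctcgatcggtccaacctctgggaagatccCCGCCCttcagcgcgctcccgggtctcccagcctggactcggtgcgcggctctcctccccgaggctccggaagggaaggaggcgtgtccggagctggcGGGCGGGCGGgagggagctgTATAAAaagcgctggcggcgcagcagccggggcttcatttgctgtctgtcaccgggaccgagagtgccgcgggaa
Kit: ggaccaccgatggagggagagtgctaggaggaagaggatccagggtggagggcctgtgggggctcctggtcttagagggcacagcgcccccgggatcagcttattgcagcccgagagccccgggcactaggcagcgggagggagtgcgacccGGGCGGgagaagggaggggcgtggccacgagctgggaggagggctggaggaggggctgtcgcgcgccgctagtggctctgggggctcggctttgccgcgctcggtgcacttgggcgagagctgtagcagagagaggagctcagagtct
The Kitl window held 3 GC boxes, which begin at bases -143, -45 and -41 from the start site, the last pair overlapping each other, and a TATA box at base -25. The Kit window held 1 GC box, at base -98, and no TATA box. A GC box occurs in 35.7% and a TATA box in 13.6% of the 32851 windows of the same length. Neither window held the androgen response half-site AGAACA on either strand, found in 19% of windows, or the full element, in which AGAACA and TGTTCT stand 3 bases apart, found in 0.00913% of windows. Each held 1 E-box (CANNTG), as did 72.3% of windows. RefSeq lists 2 start sites for Kit, and the window of the more upstream one is shown. The full androgen response element is so rare that nearly all windows lack it. Sites of these genes outside the windows shown were not examined, so the missing matches speak only for these bases.

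The deposited signals are linear intensities that did not share a common level, so each array was multiplied by a factor between 0.779 and 1.33 that equalised the trimmed mean signal. Fold changes are on the log2(scaled signal + 9.78) scale, where 9.78 is the 25th percentile of all scaled signals, and they understate the difference of dim probe sets. Of 14 listed spermatid genes 14 were above the filter on dim probe sets, which asks for a mean scaled signal over 22.7, as were 16 of 19 Sertoli cell genes with a probe set and 8 of 10 Leydig cell genes. The ratio of 3′ to 5′ signal of the control gene Gapdh was 0.844 ± 0.039 (SD, n = 3) on the T+T arrays and 1.2 on the T+O array, and that of pyruvate carboxylase was 1.9 ± 0.123 (SD, n = 3) on T+T and 3.76 on T+O. The ratio for Actb was 1.66, 1.4 and 1.17 on T+T replicates 1, 2 and 3, a range that holds the T+O value of 1.53. Over the whole array, 2 of 7453 probe sets passed the limma test between T+T and T+O at an adjusted p under 0.05, a share of 0.0268%.

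The ligand was the member that set the arrays apart. Kitl had scaled signals of 14.4, 12.6 and 17.4 on T+T replicates 1, 2 and 3, against 49.9 on the T+O array. All 3 T+T arrays were low, the T+O array was high, and the groups did not overlap. The T+T mean was 14.8 ± 2.41 (SD, n = 3), so the T+O signal was 3.38 times the T+T mean on the linear scale. On the log2 scale the 3 T+T arrays differed from T+O by between -1.42 and -1.14, with a mean of -1.29. The T+T arrays themselves spanned only 0.28 on that scale, and the nearest T+T array lay 1.14 from T+O. In all, 166 of 7453 probe sets were likewise at least 1.5-fold lower on every T+T array than on T+O, a share of 2.23%, and T+T values all below T+O were found for 23.7%. Kitl stood 52nd from the lowest of the 7453 differences. The pair was chosen with this contrast known, and Kitl was kept only through its T+O signal. Its rank and its place among the 2.23% are therefore a description only.

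**Figure D1:**
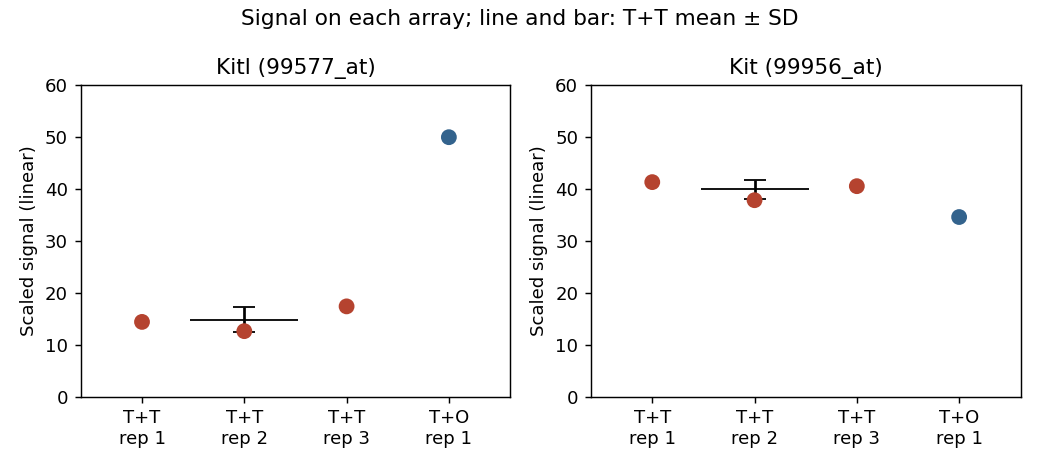
Scaled signal (linear, vertical axis from 0) of the Kitl and Kit probe sets on the T+T arrays (red) and the T+O array (blue). The line and bar give the T+T mean ± SD (n = 3). Kitl sits between 12.6 and 17.4 on T+T and at 49.9 on T+O, while Kit sits between 37.8 and 41.3 on T+T and at 34.6 on T+O.

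The position of Kitl within each array does not depend on how the arrays were scaled. Its signal ranked at the 32.5th, 30.6th and 33.6th percentile of all probe sets on T+T replicates 1, 2 and 3, and at the 58.4th percentile on T+O. It was thus in the lower part of the signals on each T+T array and just above the middle on T+O. Without detection calls it is unknown whether the T+T signals lay above background, and the ratio of 3.38 is between a dim and a moderate signal. The probe set passed the filter narrowly, with a mean over the 4 arrays of 23.6 against a limit of 22.7, and 104 probe sets lay between it and that limit. The T+T mean alone was below the limit, so Kitl passed through its T+O signal, and a probe set that passes in this way has to differ. The Gapdh and pyruvate carboxylase 3′ to 5′ ratios given above were also higher on T+O than on every T+T array, and their part in the Kitl difference was not tested.

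**Figure D2:**
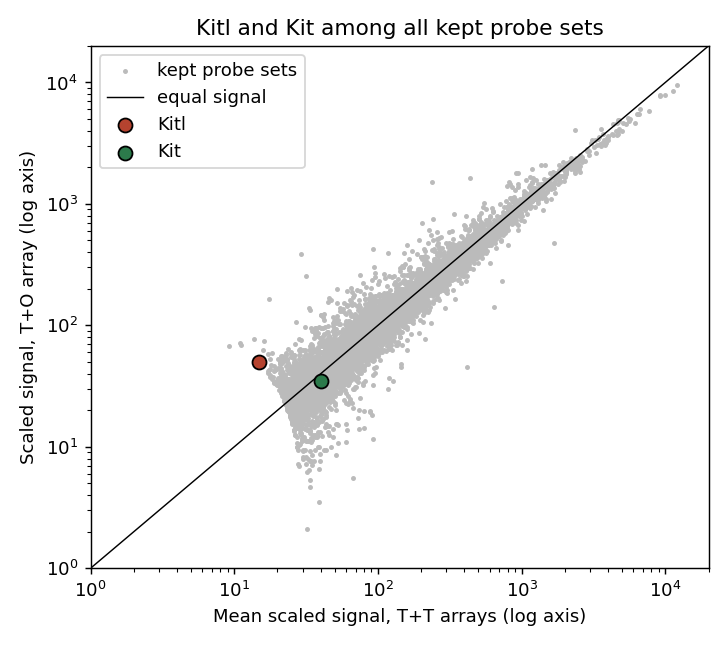
Scaled signal on the T+O array (vertical, log axis) against the mean scaled signal of the 3 T+T arrays (horizontal, log axis) for the 7453 kept probe sets (grey), with Kitl (red) and Kit (green). The line marks equal signal. Kitl lies above the line at the dim edge set by the filter, with 14.8 on T+T and 49.9 on T+O, and Kit lies just below it.

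The receptor differed little. Kit had scaled signals of 41.3, 37.8 and 40.5 on T+T replicates 1, 2 and 3, against 34.6 on the T+O array. The T+T arrays were close together and all slightly above T+O. The T+T mean was 39.9 ± 1.83 (SD, n = 3), a log2 difference of 0.16, or 1.12-fold on the offset scale. The T+O array lay 0.10 below the nearest T+T array on the log2 scale, which is no more than the 0.10 that the T+T arrays spanned among themselves. T+T values all above T+O were found for 29.5% of the 7453 probe sets. Differences closer to 0 than that of Kit were found for 40.9%. In the signals as deposited, Kit had 35.9, 28.5 and 52 on the T+T arrays and 37.8 on T+O. The T+O value then lay within the T+T range. After quantile normalization or median scaling Kit had 43, 39.4 and 37.8 on T+T and 35.4 on T+O. T+O thus lay below every T+T array only once array levels were equalised or ranks were used. Within each array Kit ranked at the 54.6th, 52.7th and 51.8th percentile on T+T and at the 50.2nd on T+O. Because the RNA came from whole testes, fewer cells that carry a transcript and less of it per cell cannot be told apart, for Kit as for Kitl.

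The 2 arrays whose title and description match are T+T replicate 1 and T+O, so this pair is the one in which 4 hours of renewed testosterone can be read from the labels alone. The first treatment lasted 2 weeks for T+O but its length is not given for T+T replicate 1, so the arrays may also differ in that. Between them Kitl differed by -1.31 on the log2 scale, with 14.4 on T+T replicate 1 and 49.9 on T+O. This is 1 array against 1 array with no replicate check, and 11.1% of probe sets were likewise 1.5-fold or more below T+O on that array. Kit differed by 0.20, with 41.3 on T+T replicate 1 and 34.6 on T+O. With replicates 2 and 3 of T+T counted as withdrawn instead, Kitl had 14.4 on T+T replicate 1 and 26.6 ± 20.3 (SD, n = 3) on the other arrays, a log2 difference of -0.46. In that reading the T+O array at 49.9 makes up the spread, and T+T replicate 1 lay between T+T replicate 2 at 12.6 and T+T replicate 3 at 17.4. T+T replicate 1 differed from T+T replicates 2 and 3 in Kitl by 0.11 and -0.17 on the log2 scale, and the T+O array alone was high. Kit on the same reading had 41.3 on T+T replicate 1 and 37.6 ± 2.98 (SD, n = 3) on the others.

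The genes with the most similar profile over the 4 arrays were found by the root mean square distance between log2 profiles centred on their own means, among 5677 named genes. For Kitl these were Kpna3, a nuclear import receptor, at a distance of 0.044, Ddx50, an RNA helicase of the nucleolus, at 0.076, the ribosome-associated chaperone Dnajc2 at 0.076, the lipid acyltransferase Lpgat1 at 0.085 and the nucleosome-binding protein Hmgn5 at 0.088. The median distance over all genes was 0.601. Kpna3 had 63.4, 62.6 and 79.3 on the T+T arrays, against 178 on T+O. Hmgn5 had 33.6, 30.3 and 43.6 on the T+T arrays, against 89.1 on T+O. All 5 were low on each T+T array and high on T+O, with log2 differences between -1.27 and -1.13. Their choice by closeness to the Kitl profile fixed this pattern in advance. A second probe set of Dnajc2 lay at -1.10 and a second kept probe set of Ddx50 at -0.84. Dim probe sets below the filter did not share the profile, at -0.06 for Kpna3, -0.28 for Lpgat1, and 0.35 and -0.44 for Ddx50. For Kit, whose profile is nearly flat, the closest were the inositol phosphatase Inpp5k at 0.01, the orphan nuclear receptor Nr0b1 at 0.011, the peroxisomal thiolase Acaa1a at 0.013, the calcium entry regulator Saraf at 0.015 and the spliceosomal protein Snrpd3 at 0.015, against a median over all genes of 0.193. Nr0b1 had 111, 102 and 111 on T+T and 94.6 on T+O. A flat profile has many close neighbours, and 4 arrays give these distances little weight.

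**Figure D3:**
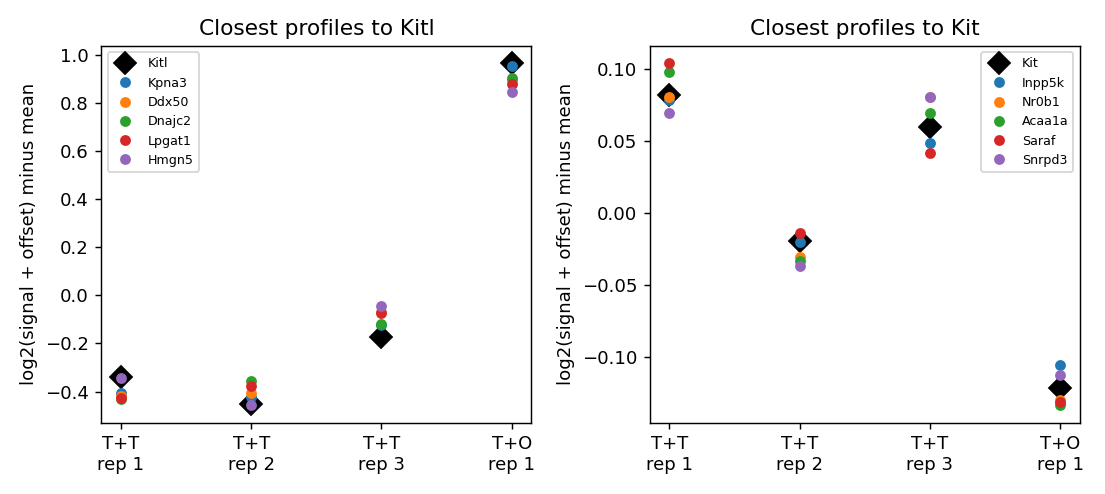
Log2(signal + offset) minus its mean over the arrays (vertical) for Kitl and Kit (black diamonds) and the 5 named genes closest to each (coloured points), with T+T arrays on the left and T+O on the right of each panel. The Kitl neighbours are all high on T+O because they were chosen for closeness to Kitl. The Kit panel spans a much narrower range.

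The genes around the pair were set beside it in 13 lists, and none of their members passed. Of 110 listed genes that were kept (each by its brightest probe set, some in more than 1 list, Kitl and Kit left out), limma gave 0 higher and 0 lower in T+T at an adjusted p under 0.05, where 0 of all 5677 named genes kept (0%) passed on the same count. Before adjustment, 3 were higher and 1 lower at a limma p under 0.05, beside 3.08% higher and 4.4% lower among all named genes. Of the 110 genes, 67 lay above 0 and 43 below, beside 3008 above and 2669 below among all 5677 named genes kept. The median log2 difference of the 110 genes was 0.07, against 0.02 for all named genes. Their differences ran from -1.07 to 1.16 on the log2 scale.

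Among the relatives of the pair, the receptor tyrosine kinases of similar build and their ligands, 5 of 10 genes were kept and none passed in limma, with a median of 0.02. Flt3, the receptor of early blood progenitors, had 148, 124 and 170 on T+T, against 107 on T+O. Csf1r, the macrophage receptor, had 62.6, 56.1 and 53.7 on T+T, against 45.8 on T+O. Both were higher on every T+T array, by 0.41 and 0.27 on the log2 scale, and the second kept probe sets lay at 0.39 for Flt3 and at 0.00 for Csf1r. The platelet-derived growth factor receptor Pdgfra and its ligand Pdgfa were at -0.09 and -0.05, with T+O inside the T+T range. A dimmer Pdgfra probe set below the filter, named after its values were seen, had 11.8, 11.7 and 16 on T+T and 44.4 on T+O, so the probe sets of that gene disagree.

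Of the signal carriers downstream of Kit, 26 of 33 genes with a probe set were kept, none passed in limma and 12 lay above and 14 below 0, with a median of -0.01. Yes1, a Src family kinase, had 9.43, 29.3 and 35.4 on T+T, against 58.3 on T+O (log2 difference -1.07, SE 0.51). Its T+T arrays were all lower but far apart from one another. Pik3r2, a regulatory subunit of PI3 kinase, had 71.9, 55.7 and 90.5 on T+T, against 106 on T+O. Stat3, a transcription factor of cytokine signalling, lay the other way with 155, 152 and 149 on T+T and 114 on T+O, and its second kept probe set was at 0.19. The docking protein Gab2 had 15.9, 53.3 and 21.7 on T+T and 9.42 on T+O, so T+T replicate 2 stood far above the other arrays. The counts of this list include Pdk1, at -0.16, which is a pyruvate dehydrogenase kinase and not the PI3 kinase route member Pdpk1, listed separately.

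Negative regulators of Kit signalling had 9 kept genes of 10 with a probe set, 7 above and 2 below 0, none past the adjusted threshold in limma, and a median of 0.24. Grb10, an adaptor that dampens growth factor receptors, had 38.0, 27.7 and 24.7 on T+T, against 7.96 on T+O (log2 difference 1.16, SE 0.40, limma adjusted p = 0.51). Its second kept probe set had 34.3, 19.5 and 22.6 on T+T and 21.7 on T+O, inside the T+T range, so the direction for this gene is uncertain. Ptpru, a receptor phosphatase, was at 0.50, and Matk, a kinase that restrains Src family kinases, at -0.35. The adaptor Dok1 was at -0.06.

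Surface proteases that can shed ligands of this kind, with their inhibitors, had 5 of 10 genes kept and none past the adjusted threshold in limma, with a median of 0.17. Timp2, an inhibitor of matrix metalloproteases, had 63.4, 75.8 and 82.3 on T+T, against 40.2 on T+O (log2 difference 0.73, limma adjusted p = 0.51). Timp3, another such inhibitor, had 89.0, 88.2 and 72.8 on T+T, against 123 on T+O, a log2 difference of -0.51. The membrane protease Mmp14 was at 0.22 and Adam10 at -0.48. A dimmer Adam10 probe set below the filter lay at 0.67. Adam17 and Mmp9, both known to shed surface proteins, fell below the filter.

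Of the transcription factors known to act on Kit or Kitl, 7 of 10 with a probe set were kept, none passed in limma, and the median was -0.09. Sp1, a factor known to bind GC boxes, had 23.2, 13.0 and 27.6 on T+T, against 40.7 on T+O (log2 difference -0.73, SE 0.42). All 3 T+T arrays were lower than T+O, but their mean of 21.3 was below the filter limit of 22.7. Sp1 was thus kept only through its T+O signal, and a probe set that passes in this way has to differ. Lmo2, a bridging protein of blood cell factors, was at 0.37 and Gata1, made by Sertoli and blood cells, at 0.30. A second kept probe set of Lmo2 lay at 1.05 and one of Gata1 at 0.00. Mitf and Tal1 were below the filter.

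Sertoli cells are the known source of the ligand. Of 16 kept Sertoli cell genes, 13 lay above and 3 below 0, beside 3008 above and 2669 below among all 5677 named genes kept. None of the 16 passed in limma at the adjusted threshold, with a median of 0.14 and a lowest difference of -0.20 by the brightest probe set of each gene. Aqp8, a water channel, had 143, 140 and 128 on T+T, against 72.3 on T+O (log2 difference 0.84, limma adjusted p = 0.29). The transcription factor Gata4 was at 0.63, Nr5a1 at -0.08 and Tsx, a Sertoli cell transcript, at -0.20. Of the other kept probe sets of Nr5a1, 1 had 99.7, 110 and 116 on T+T, against 154 on T+O, a log2 difference of -0.47, and 1 lay at 0.19. The summed signal of the Sertoli list was 4437 to 5089 on the T+T arrays and 4422 on T+O. Other niche ligands of somatic cells had 8 of 17 genes kept and none past the threshold in limma, between -0.40 for the activin subunit Inhba and 0.23 for Bmp4, with Tgfb3 at -0.16, Igf1 at 0.22 (0.39 on its second kept probe set) and a median of 0.03. Of 9 endothelial genes with a probe set, 4 were kept, with Cd34 at 0.55 (0.21 on its second kept probe set), Eng at 0.42, Vwf at 0.35 and Pecam1 at -0.23, a median of 0.39, none past the threshold in limma, and a summed signal of 247.8 to 343.8 on T+T and 227.5 on T+O.

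Markers of cells that bear the receptor were mixed. Differentiating spermatogonia had 6 of 9 genes kept and none past the adjusted threshold in limma, 2 above and 4 below 0, a median of -0.24 and a summed signal of 2387 to 2638 on T+T and 2773 on T+O. Dazl, an RNA-binding protein of germ cells, had 63.5, 79.2 and 103 on T+T, against 166 on T+O (log2 difference -0.96, limma adjusted p = 0.41). A second kept probe set of Dazl had 54.9, 75.0 and 71.0 on T+T and 66.0 on T+O, inside the T+T range. Stra8, which starts meiosis, was at -0.56, while Dmrt1 at 0.06 and Esx1 at 0.02 were near 0. Undifferentiated spermatogonia, which carry little Kit, had 4 of 12 genes kept and none past the threshold in limma, with Cdh1 at 0.50, Uchl1 at 0.28, Id4 at 0.06 and Zbtb16 at -0.16, and a summed signal of 590.0 to 627.3 on T+T and 493.9 on T+O. Ret and Gfra1, the receptor of another Sertoli cell factor, fell below the filter.

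Leydig cell genes had 8 of 10 kept and none past the threshold in limma, a median of 0.04 and a summed signal of 1563 to 1705 on T+T, a range that holds the T+O sum of 1652. Star, the cholesterol carrier, was at 0.61 on a probe set marked for cross-hybridisation (letter f), Cyp17a1 at 0.14, Cyp11a1 at -0.13 and Hsd3b1 at -0.18 (-0.28 on its second kept probe set), the last 3 being enzymes of steroid synthesis. Among the other named list genes, letter marks were also carried by the brightest probe sets of Flt3 (r), Grb10, Matk and Bmp4 (s) and Zbtb16 (g). Mast cell and melanocyte genes had 5 of 17 kept and none past the threshold in limma, with Dct at 0.53, Hdc at 0.25, Tpsb2 at -0.07 and Gata2 at -0.09, a median of 0.12 and a summed signal of 353.2 to 418.4 on T+T and 337.3 on T+O. A second kept Tpsb2 probe set had 23.8, 59.3 and 25.6 on T+T, against 15.5 on T+O, a log2 difference of 0.78, so the probe sets of that gene disagree. The mast cell proteases Cma1 and Cpa3 and the IgE receptor gene Fcer1a were below the filter. Spermatids, which make a truncated form of Kit in the mouse, had 14 of 14 genes kept and none past the threshold in limma, with Prm2 at 0.48, Tnp2 at 0.31, Acrv1 at -0.36 and Clgn at -0.57 (-0.76 on its second kept probe set), a median of 0.12 and a summed signal of 32670 to 41620 on T+T, which holds the T+O sum of 33080. The Prm2 probe set was dim, with 35.4, 29.3 and 58.1 on T+T and 25.5 on T+O, close to the filter limit of 22.7. The sources used here do not say which part of Kit its probe set covers, so full-length and truncated transcripts cannot be told apart. The summed signal of the differentiating spermatogonia list and the signal of Kitl were both higher on T+O than on every T+T array. Of the 6 kept genes of that list, 3 were likewise higher on T+O than on every T+T array: Dazl, Stra8 and Ddx4. The same held for 1391 of all 5677 named genes kept. Dmrtb1, the largest part of the summed signal, had 1860, 1770 and 1530 on T+T and 1760 on T+O. Ddx4 had 283, 597 and 588 on T+T, against 635 on T+O. The second kept probe set of Dazl was not higher on T+O than on every T+T array. In the list 1 gene, Dmrt1, was higher on every T+T array, as were 1652 of all 5677 named genes kept. The part of the germ cell makeup in the Kitl difference was not tested.

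**Figure D4:**
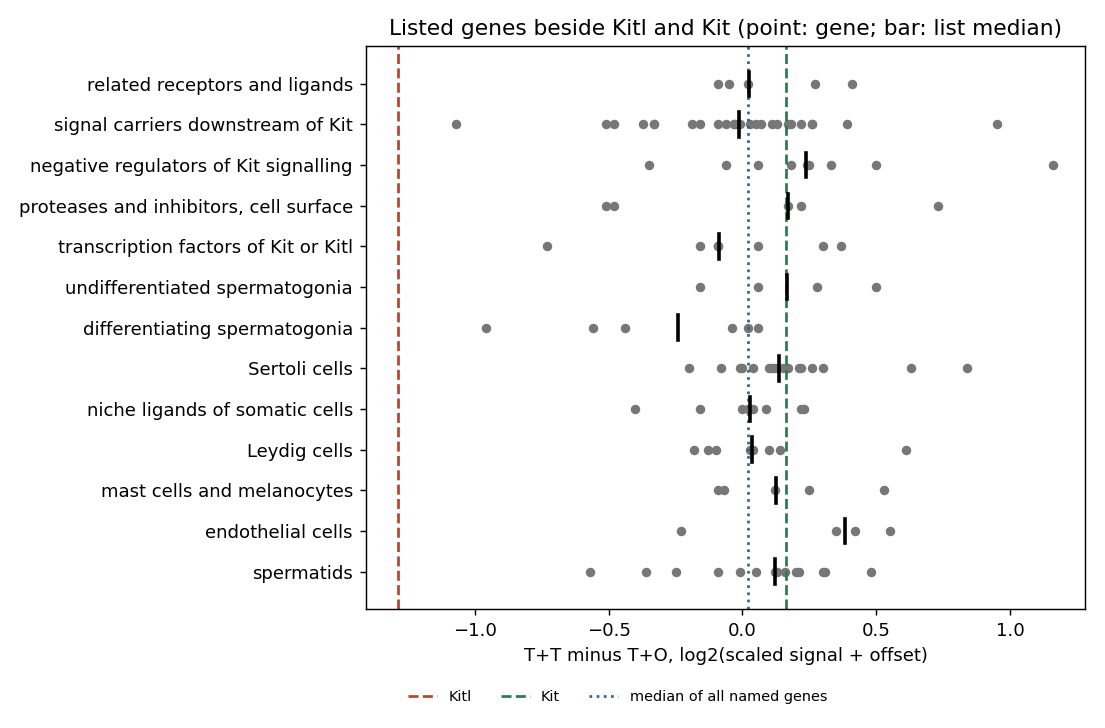
Difference T+T minus T+O on the log2(scaled signal + offset) scale (horizontal) for each kept gene of the 13 lists (grey points) with the list median (black bar). Dashed lines mark Kitl at -1.29 and Kit at 0.16, and the dotted line marks the median of all named genes, 0.02. The listed genes lie between -1.07 and 1.16.

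The Kitl difference was negative under each of the 9 alternatives that could change its size, with values from -1.70 to -0.46 on the log2 scale. Another offset or a T+T array left out could not change the sign, because every T+T signal lay below T+O. The size of the Kitl difference depended on the offset, as for any dim probe set: it was -1.70 with an offset of 1 and -0.78 with an offset at the 50th percentile. The Kit difference ran from 0.00 to 0.20 over the same 9 alternatives, with 0.00 for the signals as deposited.

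**Figure D5:**
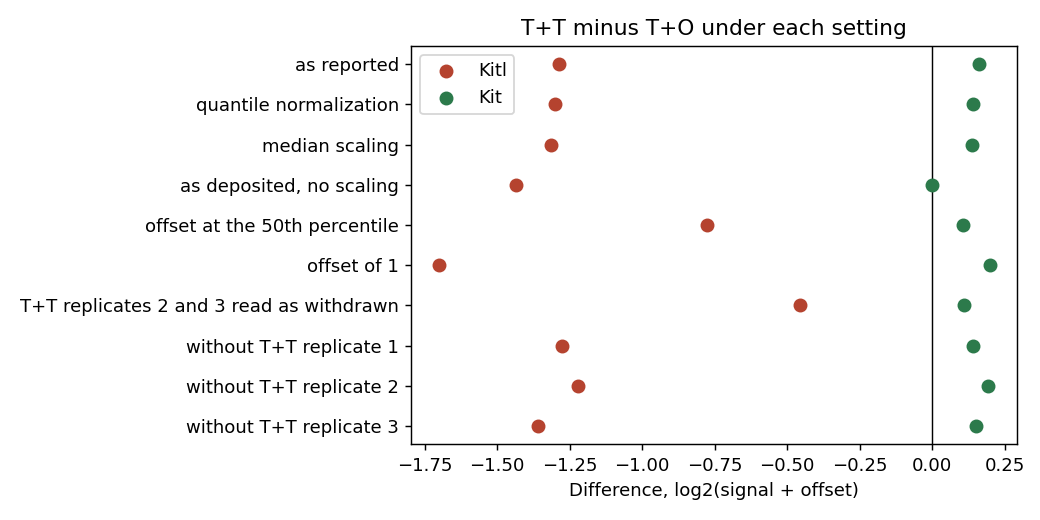
Difference between the groups in log2(signal + offset) (horizontal) for Kitl (red) and Kit (green), as reported and under each of the 9 alternatives (rows). The black line marks 0. Kitl is below 0 in each row, nearest to it at -0.46 with replicates 2 and 3 of T+T counted as withdrawn, and Kit stays between 0.00 and 0.20.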

How the data were processed

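Values were the deposited signal intensities of the series value table, 1 per probe set and array; the software and scaling behind them are not given in the sources used here. After 66 control probe sets were left out, each array was scaled to the mean of the 4 trimmed means (2% off each end), an offset of 9.78 was added and log2 taken, and probe sets with a mean above the 40th percentile were kept (7453). Symbols came from the platform annotation, updated through RefSeq (10817 of 10833 single-symbol probe sets matched; 396 carried several symbols and 1193 none). For genes with several kept probe sets the brightest was used.

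T+T minus T+O was tested with limma 3.58.1 in R 4.3.3 (lmFit, eBayes with an intensity trend, two-sided, Benjamini-Hochberg over all kept probe sets, threshold 0.05) with 2 residual degrees of freedom; the spread comes from T+T and is assumed to hold for the single T+O array. Its p-values measure only the spread between these arrays, whose number limits the precision. On simulated data for this comparison (7453 probe sets) 47 of 100 simulated 2-fold and 85 of 100 simulated 4-fold differences were recovered, with 9 false calls. Kitl and Kit got no test.

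Groups follow the titles; T+T replicate 3 was numbered in accession order. Named were the 2 highest and 2 lowest kept genes of each list, the 5 closest profiles of each member, and further probe sets or genes below the filter chosen after their values were seen. The members, lists and rules were chosen with earlier results of these data known. Alternatives covered scaling, offset, filter, trend, the arm of T+T replicates 2 and 3, and each T+T array left out.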

Additional observations from a re-analysis of the deposited data

How the results depend on the processing

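No paired analysis was possible because T+O has a single array whose number pairs it with nothing. The Kitl difference of -1.29 became -1.44 without scaling, -0.78 with the offset raised to the 50th percentile, -1.70 with an offset of 1 and -0.46 with replicates 2 and 3 of T+T counted as withdrawn; quantile normalization, median scaling and leaving out a T+T array moved it by less than the T+T spread. For T+T replicate 1 alone, -1.31 became -1.54, -0.79 and -1.73 under the first 3 of these. The Kit difference of 0.16 became 0.001 without scaling and 0.11 with the offset raised to the 50th percentile, and for T+T replicate 1 alone 0.20 became -0.059 and 0.13. The 2 probe sets past the threshold became 0 after quantile normalization, with no filter, without the intensity trend and with replicates 2 and 3 of T+T counted as withdrawn, 5 after median scaling, 5 without scaling, 6 with the offset raised to the 50th percentile, and 1 (without T+T replicate 3) to 63 (without T+T replicate 1) with 1 T+T array left out, 12 without T+T replicate 2. Of probe sets 1.5-fold or more apart on every T+T array there were 303, and 195 without scaling, 155 with the offset raised to the 50th percentile, 532 with no filter, 167 with the filter at the 60th percentile, where Kitl and Kit are not kept, and 419 to 655 with 1 T+T array left out, 655 without T+T replicate 3. No listed gene passed in limma under any alternative. The listed genes tested numbered 169 when no filter was used, 79 under the 60th percentile filter and 110 otherwise. Their unadjusted counts are not compared between alternatives, because no count over all named genes was made to set beside them. The filters and the smaller groups change how many probe sets are tested or must lie on 1 side; the cause of the other shifts was not tested. Signal over background is unknown, which limits Kitl on T+T most.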
